A study of Mus musculus with 4 samples.

Results

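Genes that mark alternatively activated and tissue-resident macrophages were followed in mouse epididymal white fat under continuous stimulation of the β3-adrenergic receptor. The 7 genes considered were Chil3, Mrc1, Clec10a, Il4ra, Cd163, Folr2 and Pf4, each found through a probe set whose annotation gives that gene as its single symbol. Chil3, Mrc1, Il4ra, Folr2 and Pf4 were found in this way, with 6 probe sets among the 12422 that are not control probe sets, while Clec10a and Cd163 were not analysed here. The array names 8251 genes in all. RNA came from male C57BL/6 mice 3 to 4 months old and was pooled before hybridization. One pool came from mice labelled control. The others came from mice that received CL 316243, a selective β3-adrenergic agonist, at a rate of 3 nmol/hr over 1, 3 or 6 days. With 1 array in each of these groups, no difference below has a replicate check or a p-value, and precision is limited by how few arrays there are. The sources used here do not give the number of mice in a pool or what the control mice received.

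Interleukin-4 and interleukin-13 drive the alternative activation of macrophages. They bind receptors that share the chain encoded by Il4ra, and Janus kinases then activate the transcription factor STAT6. Chil3 encodes the secreted chitinase-like protein Ym1, a classical product of mouse macrophages exposed to these cytokines that monocytes and neutrophils also make. Mrc1 encodes the mannose receptor CD206, Clec10a a galactose-binding lectin, Cd163 the receptor for haptoglobin-haemoglobin complexes and Folr2 folate receptor beta. These receptors, with the chemokine platelet factor 4 encoded by Pf4, are widely used to mark resident macrophages of adult tissues, including fat.

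The promoters of Chil3 and Il4ra are shown because these were the members that passed 2-fold against control. Sequences come from the RefSeq annotation of GRCm38.p6, which held promoters of Chil3, Il4ra, Mrc1, Folr2, Pf4 and Cd163, and run from 250 bases before the annotated start to 50 after it. Chil3 lies at chr3:106167515-106167814 on the minus strand and Il4ra at chr7:125552021-125552320 on the plus strand. Capitals mark CpG dinucleotides and, in Chil3, also a match to the STAT-type motif TTCNNNGAA and the letters TATAAA.
Chil3: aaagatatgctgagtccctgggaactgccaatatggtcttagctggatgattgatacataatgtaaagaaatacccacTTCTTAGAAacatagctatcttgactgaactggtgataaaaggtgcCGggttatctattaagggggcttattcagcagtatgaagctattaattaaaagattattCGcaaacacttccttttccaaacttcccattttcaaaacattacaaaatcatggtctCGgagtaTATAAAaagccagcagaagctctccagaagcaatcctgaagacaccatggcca
Il4ra: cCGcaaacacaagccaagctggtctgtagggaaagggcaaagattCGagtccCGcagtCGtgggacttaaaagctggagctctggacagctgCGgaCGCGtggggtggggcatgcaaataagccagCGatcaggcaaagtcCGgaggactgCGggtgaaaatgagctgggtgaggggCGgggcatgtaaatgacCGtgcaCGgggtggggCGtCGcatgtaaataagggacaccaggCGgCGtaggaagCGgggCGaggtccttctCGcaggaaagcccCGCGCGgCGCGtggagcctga
The Chil3 window held 3 CpG dinucleotides and the Il4ra window 25, against a median of 7 over 32851 RefSeq promoters of the same length. GC content was 38.7% for Chil3 and 62.0% for Il4ra, with a median of 52.7% over all promoters. The STAT-type match TTCTTAGAA in Chil3 began 172 bases before the start, and 8.3% of all promoters hold this motif on either strand. The letters TATAAA began 3 bases before the annotated Chil3 start and were present in 8.3% of all promoters on the same strand. The STAT6-type motif, TTC and GAA separated by 4 bases, was present in 6.95% of all promoters and had no match in the windows of these 6 genes. The AP-1 motif TGANTCA, present in 7.81%, had a match in 1 of the 2 Folr2 windows, 74 bases before that start. The C/EBP-type motif TTGCNNAA, held by 10.8% of promoters, and the PU.1-type motif GAGGAAGT, held by 3.2%, had matches in the Pf4 window, 212 and 10 bases before the start. All motifs except TATAAA were searched on both strands. TATAAA and the CpG count were added after the sequences had been seen. The full cAMP response element TGACGTCA, held by 1.79%, and its short form TGACG, held by 20.8%, had no match in any of these windows. These matches describe the letters of the window and not the binding of a factor.

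On each array between 59.9% and 60.2% of probe sets lay above a floor of 173 intensity units, set at the 40th percentile, and values under it were set to it before any ratio. A gene was counted as higher or lower when its ratio between 2 arrays was at least 2-fold. Where the dimmer array was below the floor, the ratio is a lower bound and is written with "at least". From the disagreement of paired probe sets in 734 genes, the error of a log2 change was 0.33 at day 1, 0.26 at day 3 and 0.25 at day 6, each over control. Only genes with both probe sets above the floor on every array entered it, so Il4ra did not. The error may be too small for genes with a probe set below the floor. This error covers the disagreement of probe sets on the same arrays. It leaves out any error that the probe sets of an array share, and any difference between animals or pools. For the labelled tissue, the fat cell hormone gene Adipoq was at 52042 in control, 25374 at day 1, 42596 at day 3 and 55274 at day 6. Of 12 measured fat cell markers, 5 were at least 2-fold lower and 1 higher at day 1. On each later day, 1 was lower and 0 were higher. Of 11 measured testis and epididymis markers, 6 were above the floor on some array, with summed intensities of 5285, 1999, 1844 and 10916 in control and on days 1, 3 and 6. Most of that sum on the day 6 array was the epididymal lipocalin gene Lcn5, at 3321 in control, 63 at day 1, 7 at day 3 and 8029 at day 6, and all 6 genes above the floor were brightest on that array. Of the defining sperm genes of the list, the transition protein gene Tnp1 was at 1258, 1278, 1234 and 1709 in control and on days 1, 3 and 6. The protamine gene Prm1 was above the floor at day 6 alone, at 307, and Prm2 on none of the arrays. The part of adjoining epididymis in the changes below was not tested. In bulk tissue, a change in the number of macrophages and a change in RNA per macrophage cannot be told apart.

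At day 1, Chil3 and Il4ra were the members past 2-fold, and both were higher; the log2 changes of Mrc1 and Folr2 were 0.63 and -0.77, within 2-fold and on opposite sides of control. That is 2 of 5 measured members higher and 0 lower, where 5.71% of the 8251 genes passed 2-fold upwards and 6.35% downwards. The median log2 change of the 5 measured members was 0.63, against 0 over all genes. At day 3, 1 of 5 members, Chil3, was at least 2-fold higher and 0 were lower, where 2.88% of genes were higher and 2.47% lower. The median over the members was 0.76 at day 3. At day 6, 0 of 5 members were past 2-fold in either direction, where 1.31% of genes were higher and 1.24% lower, and the median was -0.17. With 5 measured genes, Pf4 at the floor among them, these counts describe the members and were not tested against the other genes.

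Chil3 had an intensity of 121 in control, 6505 at day 1, 1570 at day 3 and 49 at day 6. The gene was thus above the floor on the day 1 and day 3 arrays and below it on the day 6 and control arrays. Its level at day 1 was at least 37.6-fold above control. At day 3 it was at least 9.07-fold above control. Between treated days, Chil3 was 4.14-fold lower at day 3 than at day 1 and at least 9.07-fold lower at day 6 than at day 3. These bounds move with the floor. With the 25th percentile as floor, the log2 changes of Chil3 were 5.75 at day 1 and 3.70 at day 3 over control, and -4.76 for day 6 over day 3. With the 60th percentile they were 3.60, 1.55 and -1.55 in the same order. At the lower of these floors Chil3 also passed 2-fold at day 6 over control, with a log2 change of -1.06. Chil3 belongs to a family of close copies, and whether its probe set also binds RNA of the near-identical Chil4 was not tested.

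Il4ra, the signalling chain of the interleukin-4 and interleukin-13 receptors, had an intensity of 575 in control, 6815 at day 1, 976 at day 3 and 389 at day 6. The day 1 array stood apart from the other 3, and this probe set was above the floor on all of them. The log2 change against control was 3.57 at day 1, an 11.8-fold rise that ranked 35 of 8251 genes. It was 0.76 at day 3 and -0.56 at day 6, both within 2-fold. Il4ra was 6.98-fold lower at day 3 than at day 1, and 2.51-fold lower at day 6 than at day 3. A second probe set of the gene gave 27, 23, 26 and -8 on the control, day 1, day 3 and day 6 arrays, below the floor on each. The rise therefore rests on 1 of the 2 probe sets. The mean log2 change of both was 1.78 at day 1, and -0.66 for day 6 over day 3, which is within 2-fold. When the 60th percentile served as the floor, the brighter probe set changed by -0.86 from day 3 to day 6, also within 2-fold.

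**Figure D1:**
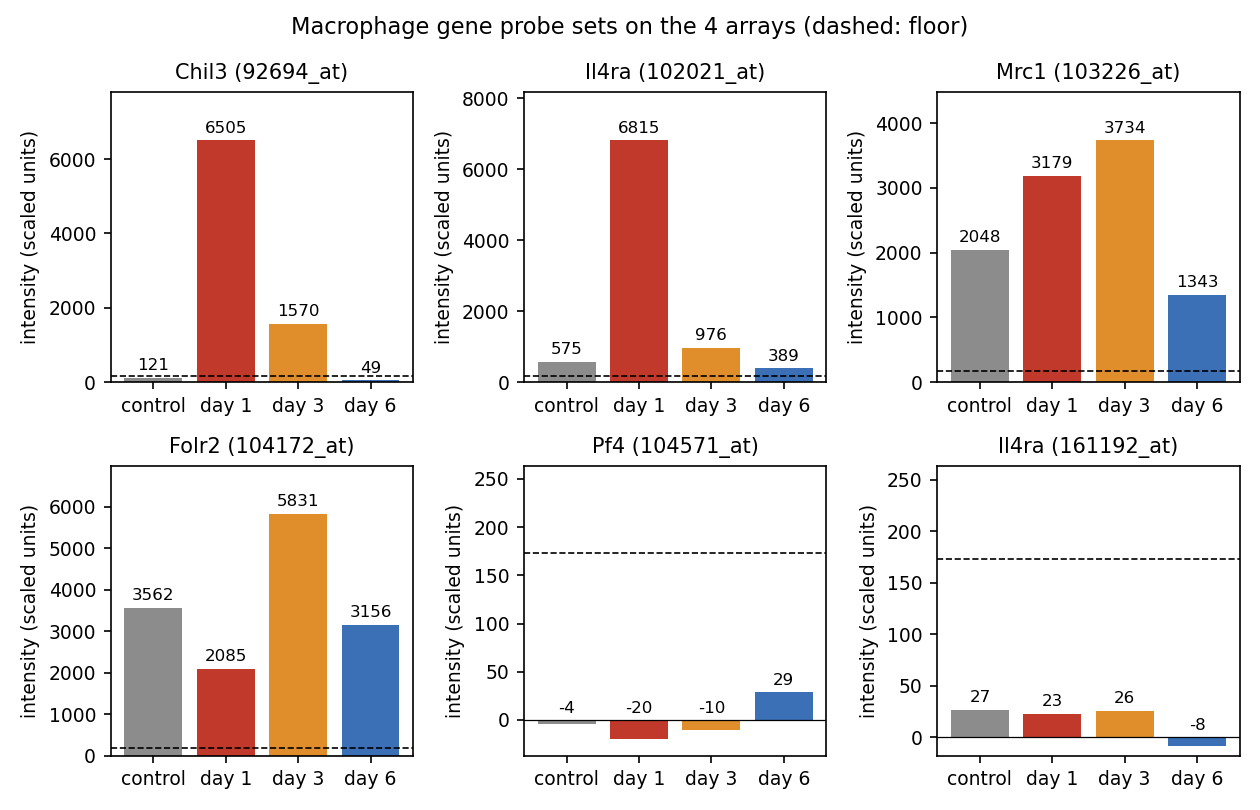
Scaled intensity of the 6 probe sets of Chil3, Il4ra, Mrc1, Folr2 and Pf4 on the 4 arrays (1 bar per array, control, then days 1, 3 and 6 of CL 316243, each panel with its own linear axis; the dashed line is the floor of 173). Chil3 and the brighter Il4ra probe set were highest at day 1, Mrc1 and Folr2 at day 3, and Pf4 and the other Il4ra probe set stayed below the floor.

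Mrc1, the mannose receptor that takes up glycoproteins and microbial sugars, had an intensity of 2048 in control, 3179 at day 1, 3734 at day 3 and 1343 at day 6. It was brightest at day 3 and dimmest at day 6. Its log2 changes against control were 0.63 at day 1, 0.87 at day 3 and -0.61 at day 6, each within 2-fold, and the day 3 change was 1.82-fold against 3 errors of 1.72-fold. The levels at day 3 and day 1 differed by 1.17-fold, less than 3 errors of 1.85-fold. From day 3 to day 6 the difference was larger, with Mrc1 at day 6 2.78-fold lower than at day 3.

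Folr2, a folate receptor anchored in the membrane of macrophages, had an intensity of 3562 in control, 2085 at day 1, 5831 at day 3 and 3156 at day 6. Among the 4 members above the floor, it was the one whose dimmest array was day 1, when Chil3 and Il4ra were brightest. The log2 changes against control were -0.77 at day 1, 0.71 at day 3 and -0.17 at day 6, all within 2-fold. Day 3 was 2.80-fold above day 1, which put Folr2 at rank 122 of 8251 genes in that comparison, and day 6 was 1.85-fold below day 3. Control and day 6 were neighbours in the order of levels and differed by 1.13-fold, within 3 errors of 1.68-fold.

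Pf4 gave -4 in control, -20 at day 1, -10 at day 3 and 29 at day 6, below the floor on all 4 arrays. No fold is given for it, and a transcript at a low level was not detectable on these arrays. Of the platelet and megakaryocyte markers, 10 of 18 were measured and 7 were above the floor on some array. At day 1, 3 were at least 2-fold higher and 1 was lower, and on each of days 3 and 6, 0 were higher and 1 was lower. Selp, the adhesion receptor P-selectin of platelets and endothelium, was at least 6.96-fold higher at day 1. The transcription factor gene Nfe2 and the coagulation factor gene F5 were at least 2.22-fold and at least 2.07-fold higher there. The platelet glycoprotein genes Gp1bb and Gp9 were below the floor on all 4 arrays, and Gp5 was above it at day 1 alone, at 209.

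Comparisons between successive treated days do not use the control array. At day 3 over day 1, Folr2 passed 2-fold upwards (1 of 5 members) and Chil3 and Il4ra downwards (2 of 5), where 4.41% of genes were higher and 4.79% lower. At day 6 over day 3, 0 of 5 were higher and 3 (Chil3, Il4ra and Mrc1) were lower, where 1.14% of genes were higher and 2.01% lower. Without Il4ra, which loses this call at the higher floor and when its probe sets are averaged, 2 were lower. The median log2 change of the members was 0 for day 3 over day 1 and -1.33 for day 6 over day 3, against 0 over all genes in both. For day 3 over day 1, that median is the value of Pf4, below the floor on both arrays, and not a measured change. Chil3 and Il4ra were 4.14-fold and 6.98-fold lower in this comparison. Folr2 and Mrc1 were 2.80-fold and 1.17-fold higher, with Mrc1 within 3 errors.

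Differences between members were set against the error of 2 probe sets. At day 1 over control, the log2 changes of Chil3, Il4ra, Mrc1 and Folr2 differed by more than 3 errors in 6 of 6 pairs. The smallest difference there was that of Mrc1 over Folr2, 1.41 ± 0.46 (error between probe sets). At day 3, 3 of 6 pairs differed by more than 3 errors, those of Chil3 with each of the others; Il4ra, Mrc1 and Folr2 lay within 0.16 of each other on the log2 scale. At day 6, 0 of the 3 pairs of Il4ra, Mrc1 and Folr2 did, while Chil3, below the floor on both arrays, had no measured change to compare. The changes of Chil3 at days 1 and 3 are themselves bounds, and the pair counts depend on the processing. With the 60th percentile as floor, the log2 changes of Chil3 and Il4ra at day 1 were 3.60 and 3.57. At day 3 that floor put Chil3 at 1.55, beside 0.87 for Mrc1, 0.76 for Il4ra and 0.71 for Folr2. With all probe sets averaged, Il4ra was at 1.78 at day 1, beside 0.63 for Mrc1. Pairs were not counted again under these settings. The errors hold no variation between animals.

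**Figure D2:**
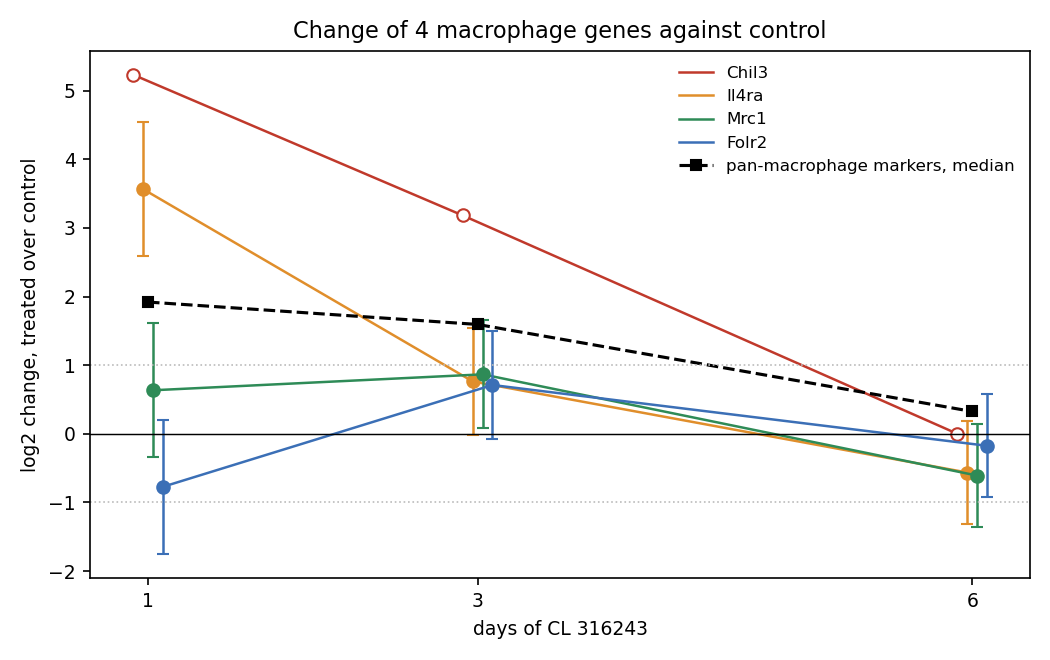
Log2 change of Chil3, Il4ra, Mrc1 and Folr2 against control (y axis) by days of CL 316243 (x axis); bars are 3 errors between probe sets, open points had a value below the floor on at least 1 of the arrays compared, and dotted lines mark 2-fold. The 4 genes ran from -0.77 to 5.23 at day 1 and from -0.61 to 0 at day 6, and the dashed line shows the median of 17 pan-macrophage markers.

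Markers of macrophages in general changed beside the members. Of 18 pan-macrophage markers, 17 were measured; 12 were at least 2-fold higher at day 1, 12 at day 3 and 1 (Mpeg1, a pore-forming protein gene) at day 6, and 0 were lower. Their summed intensity was 39134 in control, 119506 at day 1, 103492 at day 3 and 48379 at day 6. The median log2 change of the list was 1.92, 1.59 and 0.33 on days 1, 3 and 6. Mrc1 had a smaller change than 14 of these 17 genes at day 1 and than 13 of them at day 3. Folr2 had a smaller change than 17 of the 17 at day 1 and than 13 at day 3. Il4ra had a smaller change than 1 of the 17 at day 1 and than 13 at day 3. Among the defining markers, Csf1r, the receptor for macrophage colony-stimulating factor, was at 3922 in control, 4161 at day 1, 7235 at day 3 and 3532 at day 6, an order of days like that of Mrc1. The lysosomal protein gene Cd68 and the F4/80 gene Adgre1 were 5.46-fold and 4.70-fold above control at day 3, their brightest array. The integrin gene Itgam and Cd14, a co-receptor for endotoxin, were instead brightest at day 1, 14.1-fold and 7.41-fold above control.

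Day 1, the array on which Chil3 and Il4ra were brightest, was also the brightest for 8 of the 10 monocyte and 9 of the 13 neutrophil markers above the floor. Over all 6269 genes above the floor it was the brightest for 31.5%. Among other lists, day 1 was the brightest for 11 of 14 pro-inflammatory macrophage genes and 9 of 17 pan-macrophage markers above the floor. It was the brightest for 4 of 18 resident tissue macrophage genes. Of 10 measured monocyte markers, 7 were at least 2-fold higher at day 1 and 0 at day 3, and their summed intensity was 11537, 34025, 13321 and 8770 in control and on days 1, 3 and 6. The proteoglycan gene Vcan was at least 13.9-fold higher at day 1, Plac8 6.06-fold, the coagulation factor gene F10 at least 3.69-fold, and Ccr2, the receptor that brings monocytes out of bone marrow, 2.74-fold. Of 16 measured neutrophil markers, 8 were higher and 2 lower at day 1, and the summed intensity was 8351, 89514, 9626 and 4884 in the same order. The calgranulin genes S100a8 and S100a9 were 97.3-fold and at least 154-fold higher at day 1, and 3.61-fold and at least 3.12-fold higher at day 3. The gelatinase gene Mmp9 was 12.6-fold higher at day 1, and Cxcr2, a neutrophil receptor for chemokines, was at least 8.63-fold higher. Mmp9 and Cxcr2 were below the floor at day 3, when Chil3 was at 1570. Some granule protein genes of neutrophil precursors, named after their values were seen, did not share this order of days. Others of the list did: Mmp8, also named afterwards, was at least 3.91-fold higher at day 1 and Lcn2 2.70-fold higher. Among those that did not, Prtn3 was at 756 in control and below the floor at day 1, at least 4.37-fold lower. Elane was at 593 in control and 292 at day 1, 2.03-fold lower. Camp was at 460, 242, 546 and 594 in control and on days 1, 3 and 6, Ltf was above the floor at day 6 alone, at 243, and Mpo, Ngp and Ctsg were above it on no array. The part of these cells in the Chil3 and Il4ra values was not tested.

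Among 17 measured genes of interleukin-4 and interleukin-13 signalling, 2 were at least 2-fold higher and 1 lower at day 1, 1 was higher and 1 lower at day 3, and 1 was higher at day 6. Il13ra1, the chain that pairs with the Il4ra product to bind interleukin-13, was at 129 in control, 929 at day 1, 253 at day 3 and 106 at day 6. It was at least 5.37-fold higher at day 1, the same array on which Il4ra was brightest. Ptpn6, a tyrosine phosphatase of blood cells that dampens cytokine receptor signals, was 8.16-fold higher at day 1 and 3.90-fold at day 3. Pparg, a nuclear receptor of fat cells that also acts in alternative activation, was 3.74-fold lower at day 1. Irf4, a transcription factor induced by interleukin-4, was at 51 in control, -10 at day 1, 244 at day 3 and 492 at day 6. It was at least 2.84-fold above control at day 6, the day on which Il4ra was dimmest. Irs2, an adaptor of insulin and interleukin-4 receptors named after its values were seen, was the lower gene at day 3, below the floor and at least 2.61-fold below control. Of genes named after their values were seen, Stat6 was at 1925, 2026, 1725 and 1336 and Jak1 at 2257, 2543, 1844 and 2296 in control and on days 1, 3 and 6, all within 2-fold of control. Il4 and Il13, which belong to these genes named afterwards, were below the floor on all 4 arrays, with a highest value of 92. The eosinophil granule protein genes Epx, Prg2 and Prg3 were below it on all 4 arrays too.

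Of 23 other listed targets of alternative activation, 13 were measured; 4 were at least 2-fold higher and 1 lower at day 1, 2 higher and 2 lower at day 3, and 1 higher and 1 lower at day 6. Arg1, the arginase that shares its induction by interleukin-4 with Chil3, was at 128 in control, 14410 at day 1, 2924 at day 3 and 78 at day 6, above the floor on the same 2 arrays as Chil3. Odc1, which makes the polyamine putrescine from the product of arginase, was 6.03-fold higher at day 1 and within 2-fold of control on the other days. Tgm2, a transglutaminase named after its value was seen, was 2.22-fold higher at day 1. Cish, a STAT-induced feedback inhibitor likewise named after its values were seen, was 2.49-fold lower at day 1 and 2.44-fold lower at day 3. The macrophage elastase gene Mmp12 was the gene higher at day 6, at 5620 against 859 in control, a 6.54-fold difference. The lipoxygenase gene Alox15, named after its values were seen, was at least 2.19-fold lower at days 3 and 6.

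Of 20 measured genes of resident tissue macrophages, 2 were at least 2-fold higher and 3 lower at day 1, 4 higher and 2 lower at day 3, and 0 higher and 2 lower at day 6. Day 3 was the brightest array for 10 of the 18 genes above the floor, as it was for Mrc1 and Folr2. Other lists shared this in part, with 8 of 17 pan-macrophage markers and 6 of 14 scavenger and lectin receptors above the floor brightest on that array. Over all 6269 genes above the floor it was the brightest for 19.2%. Stab1, a scavenger receptor, was at 1471 in control, 2266 at day 1, 4114 at day 3 and 1660 at day 6, and 2.80-fold above control at day 3. Pltp, a phospholipid transfer protein, and C1qb, a chain of complement C1q, both named after their values were seen, were 2.06-fold and 2.17-fold higher at day 3. At day 3 over day 1, 4 of the 20 were at least 2-fold higher and 1 lower. Ninj1, a cell adhesion protein gene, was 3.19-fold higher at day 1 and 2.41-fold at day 3. Hpgd, which breaks down prostaglandins, was at least 14.7-fold lower at day 1, 4.56-fold lower at day 3 and 3.37-fold lower at day 6. Lyve1, which is also on the endothelial list, was the other gene lower at day 3, by 2.17-fold. Gas6, a ligand that helps macrophages clear dying cells, was 2.14-fold lower at day 6.

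**Figure D3:**
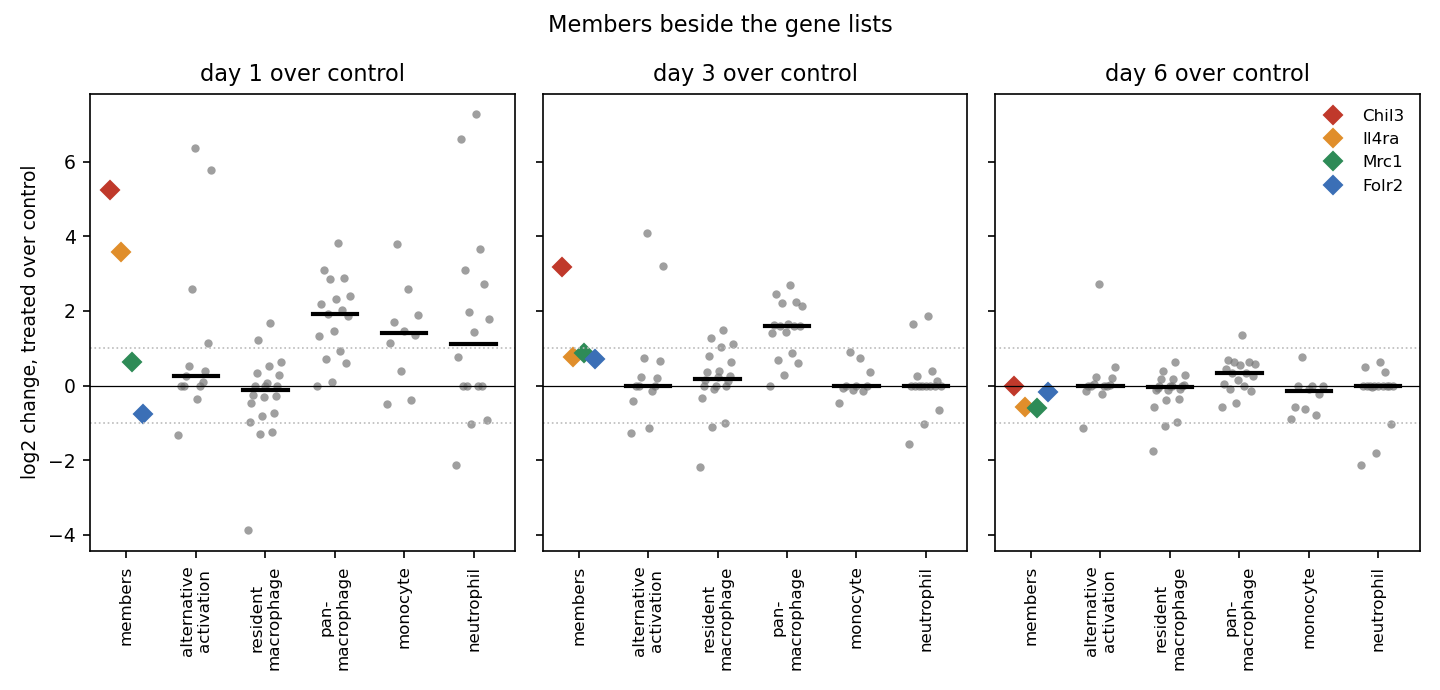
Log2 change against control on days 1, 3 and 6 (y axis, shared) for Chil3, Il4ra, Mrc1 and Folr2 (diamonds) and for the measured genes of 5 lists (grey points; black bars are list medians, dotted lines mark 2-fold). At day 1 the pan-macrophage median was 1.92, the monocyte median 1.41 and the neutrophil median 1.10, and that of the resident macrophage list was -0.12.

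Scavenger and lectin receptors, the wider class of Mrc1, had 20 of 24 genes measured, of which 5 were at least 2-fold higher at day 1, 6 at day 3 and 0 at day 6, with 0 lower on any day. Msr1, the class A scavenger receptor for modified lipoproteins, was at least 5.83-fold higher at day 1 and at least 2.19-fold at day 3. The C-type lectin gene Clec4d was at least 44.1-fold higher at day 1, the related lectin gene Clec4e at least 3.26-fold, and the galectin gene Lgals3 was 4.46-fold higher at day 1 and 3.35-fold at day 3. Mrc2, the closest relative of Mrc1 and named after its values were seen, was at 343, 217, 439 and 327 in control and on days 1, 3 and 6. It was within 2-fold of control on each day, and 2.03-fold higher at day 3 than at day 1. Beside Folr2, 10 of 15 genes of folate uptake and use were measured, with 0 higher and 2 lower at day 1 and 1 higher on each of days 3 and 6. Folr1, the folate receptor of epithelia, was the higher one, at 615 at day 3 and 624 at day 6, against 235 in control. The folate carrier genes Slc19a1 and Slc46a1 were the lower ones, 2.13-fold and at least 2.16-fold below control at day 1. Of 13 measured genes of haemoglobin and iron handling, the field in which the Cd163 product acts, 3 were higher and 1 lower at day 1, with Hmox1, which degrades haem, 6.62-fold higher and Slc11a1, a metal transporter of phagosomes, 4.84-fold. The lower gene was that of the copper oxidase ceruloplasmin, Cp, 2.31-fold below control at day 1 and 2.74-fold below at day 3. Hmox1 and Slc11a1 were 3.56-fold and 3.86-fold higher at day 3, and Hmox1 was 2.01-fold higher at day 6. Lcn2, which binds bacterial iron carriers and also belongs to the neutrophil list, was 2.70-fold higher at day 1 and 3.50-fold lower at day 6. The pro-inflammatory macrophage list had 9 of 21 measured genes higher and 1 lower at day 1, 3 higher at day 3 and 0 at day 6. Its cytokine genes Il1b and Il6 were at least 75.8-fold and at least 13.7-fold higher at day 1 and below the floor on the other 3 arrays. The chemokine genes Ccl2 and Ccl3 were higher on the same array, Ccl3 at least 25.9-fold, and at day 3 by 3.05-fold and at least 2.63-fold; Ccl2 was at 11807 at day 1, against 785 in control.

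The genes most like Chil3 and Il4ra were sought among 5299 others by the root mean square difference of their log2 changes over the 3 comparisons with control. For Chil3 the nearest was Il1rn, the interleukin-1 receptor antagonist, at 0.32; it was at 113 in control, 9539 at day 1, 1608 at day 3 and 119 at day 6. Both genes were below the floor in control and at day 6, so this distance compares bounds and depends on the floor. Next came Timp1, an inhibitor of matrix metalloproteinases, and Clec4d, both at 0.80. For Il4ra the nearest was the AP-1 gene Junb, at 0.29, with intensities of 302 in control, 4454 at day 1, 632 at day 3 and 110 at day 6. The early response gene Ier3 followed at 0.33 and the monocyte chemoattractant Ccl7 at 0.34. Junb and Ccl7 were below the floor at day 6, at 110 and 83, so their distances from Il4ra also depend on the floor. As the nearest genes were picked for their likeness, these distances are a description.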

How the data were processed

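Intensities of 4 pooled RNA samples, 1 per group, were used as deposited: 12488 probe sets per array on a linear scale, with 12.2% to 12.4% of values not above 0. The sources used here do not give how the authors normalized these intensities. A multiplier per array (0.999 to 1.001) equalised the trimmed means (percentiles 2 to 98). Values under the 40th percentile then took its value, log2 was taken, and 66 control probe sets were dropped. Printed intensities precede the floor.

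GEO's platform annotation, which can be old, gave 10833 probe sets 1 symbol, 396 several and 1193 none; none was named from several. A gene's brightest probe set represents it. The error of a log2 change is the scaled median absolute deviation of differences between a gene's 2 brightest probe sets, divided by the square root of 2. It uses genes with both of these probe sets above the floor on every array. Changes between probe sets of 2 genes differ with an error that counts this error for both.

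The members, 7 pathway lists and 14 marker lists were chosen with earlier results of these data known. The text names the members, each list's leading changes (up to 4 per pathway list and 3 per marker list, past 2-fold and with a value of at least 2 times the floor), the first 3 measured markers of a list, and the 3 nearest genes by likeness. Other names are said to follow their values. Alternatives were no scaling, quantile normalization, other floors, all probe sets averaged, and other fold limits. The code was tested on simulated data, with Python 3.11.15, numpy 2.4.6, pandas 2.3.3 and matplotlib 3.10.9.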

Additional observations from a re-analysis of the deposited data

Results flagged for a closer look

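For 3 genes the changes on 2 treated days lay on opposite sides of control while the 2 days differed by at least 2-fold. Mrc1 had a log2 change of 0.87 at day 3 and of -0.61 at day 6. Il4ra had 3.57 at day 1 and -0.56 at day 6, a distance of 17.5-fold between those days. Folr2 had -0.77 at day 1 and 0.71 at day 3. With 1 array per group these differences were not tested, and both changes of each gene use the same control array. Of these values, the 3.57 of Il4ra passed 2-fold against control. The day 6 values of Mrc1 and Il4ra and both values of Folr2 lay within 3 errors of control, so for these the side of control is not resolved.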

How the results depend on the processing

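No change past 2-fold reversed under any of these alternatives, and no value moved beyond its error without scaling or with quantile normalization. The deposited arrays were already nearly equal, with multipliers of 0.999 to 1.001 and 59.9% to 60.2% of probe sets above the floor. Leaving out the scaling or using quantile normalization could therefore hardly move a value. With the floor at the 25th percentile, 1 member (Chil3) was lower at day 6, against 0, and the median log2 change there was -0.56, against -0.17. The median for day 6 over day 3 was -0.89, against -1.33, both when the 60th percentile served as the floor and when all probe sets of a gene were averaged. Under these same 2 settings, 2 members were lower at day 6 over day 3, against 3. At 1.5-fold in place of 2-fold, 3 members were higher at day 1, against 2, and 1 (Folr2) was lower, against 0. At that limit 4 were higher at day 3, against 1, and 1 (Mrc1) was lower at day 6, against 0. For day 6 over day 3, 4 were lower, against 3. At 3-fold, 0 were higher at day 3 over day 1, against 1, and 1 was lower at day 6 over day 3, against 3. The share of all genes past 1.5-fold or 3-fold was not counted, so these member counts have no background beside them. The lower bounds for Chil3 follow the floor: its log2 change at day 1 ran from 3.60 to 5.75 at day 3 from 1.55 to 3.70, and for day 6 over day 3 from -4.76 to -1.55. No paired analysis was possible because each group has 1 array. Without replicates no spread between pools is known, and a gene below the floor, such as Pf4, may still be expressed.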

Other observations

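Other cell types were described by their markers on the same arrays. Cma1, a protease gene of mast cells, was at 1077 in control, 849 at day 1, 1473 at day 3 and 1737 at day 6, within 2-fold of control throughout. Hdc, which makes histamine in mast cells and in activated myeloid cells, was at 83 in control, 3836 at day 1, 322 at day 3 and 190 at day 6. It was at least 22.2-fold higher at day 1 and the 1 of 9 measured mast cell markers past 2-fold there. Of the other defining mast cell genes, Cpa3 was above the floor at 230 at day 3 and 224 at day 6, and Mcpt4 on no array. Of 10 measured dendritic cell markers, 0 were at least 2-fold higher at day 1 and 1 was lower, the class II gene H2-Ab1, at 2372 against 5633 in control. The defining genes Itgax, Flt3 and Zbtb46 were within 2-fold of control on each day. Of 13 measured T and NK cell markers, 0 passed 2-fold against control on any day, and Cd3e, Cd3d and Cd3g were below the floor on each array. Of 9 measured B and plasma cell markers, 1 was higher and 1 lower at day 1, and likewise 1 and 1 at day 3. Cd79a, a chain of the B cell receptor complex, was 2.09-fold higher at day 1, while Cd79b and Ms4a1 were within 2-fold of control on each day. Ighm, the immunoglobulin mu chain gene, was 3.07-fold lower at day 1 and 2.09-fold lower at day 3. Blnk, a B cell receptor adaptor gene, was 2.96-fold higher at day 3.

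Of 10 measured endothelial markers, 2 were lower at day 1, 2 at day 3 and 1 at day 6. The receptor gene Tek was 2.66-fold lower at day 1 and 2.10-fold lower at day 3, and Pecam1 was 2.01-fold lower at day 1. The lymphatic genes Lyve1 and Flt4 were 2.17-fold lower at day 3 and at least 2.76-fold lower at day 6, in that order, and Cdh5 and Kdr were within 2-fold of control on each day. Of 5 measured erythroid markers, Hba-a1, Hbb-b2 and Alas2 among them, 0 passed 2-fold against control on any day. Of 6 measured mesothelial markers, 2 were lower at day 1, 3 at day 3 and 3 at day 6. Upk3b had intensities of 5354 in control, then 2283, 2287 and 2376 on the treated days in order. Krt19 went from 1471 in control to 611, 358 and 610, and its day 6 level was 2.41-fold lower than control. Msln was within 2-fold of control at day 1 but not at day 3, and at day 6 it was at least 2.38-fold lower. Lep, the leptin gene of fat cells, was at 18447 in control, 1607 at day 1, 3806 at day 3 and 4839 at day 6. It was 11.5-fold lower at day 1, 4.85-fold lower at day 3 and 3.81-fold lower at day 6. Slc2a4, the insulin-responsive glucose transporter gene, was 6.25-fold lower at day 1 and within 2-fold of control on the later days, and the lipase gene Lipe was within 2-fold on all 3.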
